A study of Mus musculus with 14 samples.

Results

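The interferon-stimulated genes described here are 40 mouse genes that cells switch on after interferon signalling. They were taken by symbol from the gene table, and all 40 were found among its 31507 genes. Type I and type III interferons act through a complex holding Stat2 and Irf9 that binds the interferon-stimulated response element (ISRE). Interferon gamma acts through the gamma-activated site (GAS). In brain, microglia, astrocytes and endothelial cells are known to mount this response to virus, injury and ageing. Its products trap viral RNA, modify proteins, block membrane fusion and coat pathogen vacuoles.

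The study profiled mouse brain tissue by m6A sequencing, in which poly(A) RNA fragments bearing N6-methyladenosine are captured with an antibody (IP) and sequenced beside unselected fragments (input). The acupuncture group was mice with an induced haemorrhage that were given acupuncture at GV20, a point on the crown of the head, on 7 days running, with 2 IP and 2 input libraries. The ICH group was mice with an intracerebral haemorrhage, labelled autologous blood, without acupuncture (2 IP and 2 input libraries). The sham group was sham-operated mice (3 IP and 3 input libraries). Brain region, strain, sex, age and time of sampling are not stated in the sources used here, nor whether replicates were separate animals, so each p-value measures only the spread between these samples. Needling away from the GV20 point was not among the groups.

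Gene levels were the authors' FPKM, a read density scaled to gene length and library size, in each input library. Read depth was unknown, and FPKM totals lay between 179810 and 198472. Neuron markers summed to 767 to 1051 FPKM in all 7 libraries, so the tissue label was met. Acupuncture replicate 2 stood apart, because its 5 choroid plexus markers summed to 2.09 FPKM, against 336 to 486 FPKM in the other 6 libraries. Its oligodendrocyte markers summed to 417 FPKM, against 660 to 1092 FPKM elsewhere. ICH replicate 2 correlated with the other 6 libraries at 0.910 to 0.942 (Pearson's r of log2(FPKM + 1) across tested genes), below every correlation within the acupuncture or sham groups.

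Promoter sequences are shown first, because they hold the letters through which these genes are known to answer interferon. RefSeq entries on GRCm38.p6 were matched for 30 of the 40 genes, each running from 250 bases before to 50 bases after the gene start. The ISRE was searched as GAAA, any 2 bases, GAAA, and the GAS as TTCNNNGAA, on both strands. An ISRE was found in 19 of 30 genes (63.3%), against 1079 of the 27025 genes of the promoter table (3.99%). A GAS was found in 11 of 30 genes (36.7%), against 9.55% of all genes. Both motifs stood in 7 of 30 genes (23.3%), against 0.614% of all genes. Neither stood in Ifitm1, Irf7, Irf9, Oasl1, Oasl2, Xaf1 and Ifi44 within this window. A match is a description of letters and not of binding.

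The promoters of 6 genes are printed from 200 bases before the start to the base before it, on the gene's own strand, with the motif letters in capitals. Isg15 (chr4:156200819-156201018, minus strand) held 3 overlapping ISREs, the first at position -78. Ifit3 (chr19:34583329-34583528, plus strand) and its neighbour Ifit3b (chr19:34607757-34607956, plus strand) are shown to let their likeness be seen. Bst2 (chr8:71537473-71537672, minus strand) had a GAS at -136 that ran into 2 overlapping ISREs. Igtp (chr11:58199356-58199555, plus strand) had a GAS at -45 beside an ISRE at -34. Irf1 (chr11:53769814-53770013, plus strand) had a GAS at -90 and no ISRE.
Isg15: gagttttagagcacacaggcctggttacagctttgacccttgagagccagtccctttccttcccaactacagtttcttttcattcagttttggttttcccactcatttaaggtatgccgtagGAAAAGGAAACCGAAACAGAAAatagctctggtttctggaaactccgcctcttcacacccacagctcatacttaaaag
Ifit3: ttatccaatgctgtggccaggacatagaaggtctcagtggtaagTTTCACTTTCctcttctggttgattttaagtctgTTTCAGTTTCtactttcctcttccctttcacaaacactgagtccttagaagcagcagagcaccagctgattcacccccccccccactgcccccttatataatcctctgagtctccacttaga
Ifit3b: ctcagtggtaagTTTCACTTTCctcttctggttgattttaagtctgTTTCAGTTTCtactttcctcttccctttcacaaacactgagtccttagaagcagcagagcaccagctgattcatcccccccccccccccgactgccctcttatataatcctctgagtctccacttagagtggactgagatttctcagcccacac
Bst2: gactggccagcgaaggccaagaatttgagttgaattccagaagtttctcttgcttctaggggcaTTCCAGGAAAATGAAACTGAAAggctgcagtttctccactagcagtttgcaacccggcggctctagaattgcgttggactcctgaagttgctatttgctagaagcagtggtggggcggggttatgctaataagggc
Igtp: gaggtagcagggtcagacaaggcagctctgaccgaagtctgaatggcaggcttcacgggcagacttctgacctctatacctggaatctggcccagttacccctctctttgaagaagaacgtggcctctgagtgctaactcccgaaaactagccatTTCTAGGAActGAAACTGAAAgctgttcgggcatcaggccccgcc
Irf1: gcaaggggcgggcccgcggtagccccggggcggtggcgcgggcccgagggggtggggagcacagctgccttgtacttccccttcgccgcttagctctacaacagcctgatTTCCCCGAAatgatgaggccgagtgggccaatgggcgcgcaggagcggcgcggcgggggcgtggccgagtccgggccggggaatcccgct

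All 4 guanylate-binding protein genes with an entry (Gbp2, Gbp3, Gbp5 and Gbp7) and all 3 immunity-related GTPases with an entry (Igtp, Irgm1 and Irgm2) held an ISRE. Of the 5 transcription factors, Stat2 held an ISRE, Irf1 and Irf8 held a GAS, and Irf7 and Irf9 held neither. Most ISREs lay before the start, the exceptions being matches in Ifitm3, Trim30a and Ifih1.

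**Figure D1:**
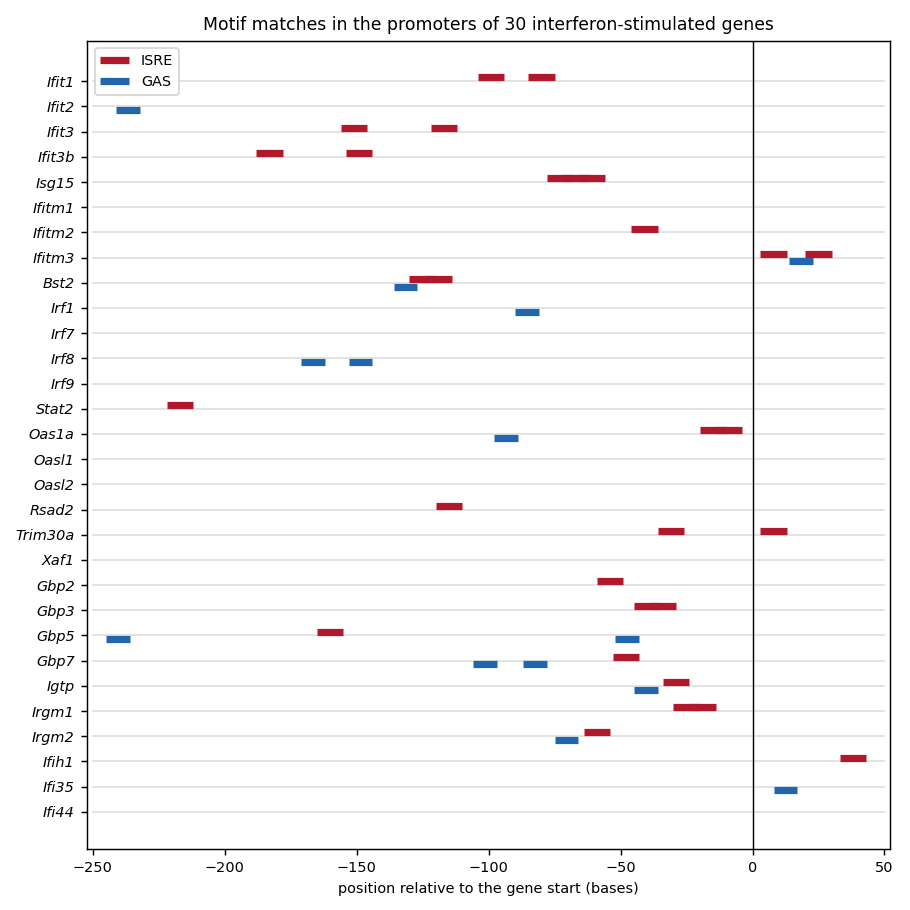
Position of each ISRE (red) and GAS (blue) match relative to the RefSeq gene start, in bases, for the 30 interferon-stimulated genes with a promoter entry. An ISRE lay in 19 genes, Isg15 had 3 overlapping ISREs, and 7 genes had neither motif.

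Interferon-stimulated transcripts were higher in every haemorrhage library than in every sham library. Summed over the 40 genes, the level was 364 and 571 FPKM in the acupuncture libraries, 316 and 347 FPKM in the ICH libraries and 58.7, 57.7 and 66.3 FPKM in the sham libraries. For each of the 40 genes, neither the acupuncture nor the ICH libraries overlapped the sham libraries. Among all 13666 tested genes, 31.8% had acupuncture libraries wholly above sham and 21.5% had ICH libraries wholly above sham. Levels of a tissue mix cell number and RNA per cell, so more responding cells and more RNA per cell cannot be told apart.

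The 14 microglia and macrophage markers summed to 558 and 506 FPKM in the acupuncture libraries, 522 and 484 FPKM in the ICH libraries and 142 to 161 FPKM in the sham libraries, and none was at 0 in any library. Reactive astrocyte markers (7 genes) summed to 945 and 754 FPKM, 660 and 614 FPKM, and 35.0 to 40.8 FPKM in the acupuncture, ICH and sham libraries. Neutrophil markers (10 genes) summed to 86.3 and 58.6 FPKM after acupuncture, 21.7 and 24.0 FPKM in ICH and 9.52 to 12.6 FPKM in sham, with 1 to 4 of them at 0 in each library. The 5 markers of plasmacytoid dendritic cells, known as strong makers of type I interferon, summed to 8.12 and 4.99 FPKM after acupuncture, 8.98 and 11.6 FPKM in ICH and 10.6 to 13.3 FPKM in sham, with the highest sum in a sham library. Of these 5 markers Ly6d went the other way, with 1.33 and 1.525 FPKM after acupuncture, 1.12 and 0.379 FPKM in ICH and 0 to 0.254 FPKM in sham. Siglech and Cox6a2 carried most of the sum, with 3.00 to 3.63 and 7.29 to 9.61 FPKM in sham. Ccr9 stayed at or under 0.0405 FPKM and Klk1 at or under 0.165 FPKM. The sum thus follows Siglech and Cox6a2 and cannot be read as a level of plasmacytoid dendritic cells. Markers of blood-derived monocytes and border macrophages (10 genes) summed to 20.6 and 19.8 FPKM after acupuncture, 13.06 and 12.96 FPKM in ICH and 3.00 to 3.72 FPKM in sham, with none at 0. Endothelial markers (8 genes) summed to 109.6 and 110.5 FPKM after acupuncture, 77.2 and 68.7 FPKM in ICH and 53.1 to 58.2 FPKM in sham, with none at 0. The sums of all these sets but that of plasmacytoid dendritic cells were higher in every haemorrhage library than in every sham library. Not every marker followed its sum. P2ry12 of the microglia set had 6.99 and 5.545 FPKM after acupuncture, against 11.97 to 12.93 FPKM in sham. S100a8 and S100a9 carried most of the neutrophil sums, and Ly6g and Mpo were at 0 in most libraries. Camp was lower in ICH than in sham, and Ngp lower after acupuncture than in sham. Cldn5 and Ly6c1 carried most of the endothelial sums. Of the other endothelial markers, Slco1a4 had 5.89 and 6.74 FPKM in ICH, against 6.62 to 7.65 FPKM in sham. Cldn5 overlapped sham in ICH as well, and Flt1, Kdr and Tek overlapped sham after acupuncture. In the monocyte and border macrophage set Vcan overlapped sham in both haemorrhage groups and Lyve1 in ICH. The part of these sets in the results below was not tested.

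Testing used limma on log2(FPKM + 1), a scale that understates the change of low genes, for all genes averaging 1 FPKM or more across the input libraries. A gene was called where its p, adjusted over all tested genes by Benjamini-Hochberg, was under 0.05. The filter was passed by 36 of the 40 genes. Of these, 20 had a sham mean under 1 FPKM and passed through the haemorrhage groups where they were high, so counts over the 36 are descriptions. In ICH against sham, 29 of 36 were called higher, with 4.95% of all tested genes called higher, and 0 were called lower. After acupuncture 35 of 36 were called higher than in sham, with 8.47% of all tested genes. The median log2 fold change over the 36 was 1.31 in ICH and 1.51 after acupuncture, beside -0.01 and 0.04 over all tested genes. Both comparisons use the same 3 sham libraries. Gene coordinates below are those of the authors' table, on GRCm38.

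Without a filter on low values all 40 genes entered the test. Then 13 were called in ICH against sham, with 1.97% of 30682 genes, and 30 in acupuncture against sham, with 4.09%. Of the 16 genes with a sham mean of at least 1 FPKM, 12 were called higher in ICH and 16 after acupuncture, with 4.95% and 8.47% of all tested genes. The count in ICH against sham was 14, 13 and 15 without sham replicate 1, 2 and 3. Of all tested genes, 2.69%, 2.84% and 2.90% were then called higher, so calls fell across the whole table. With 2 libraries against 3 the count rests on few samples. In acupuncture against sham the count was 30, 30 and 31 without sham replicate 1, 2 and 3, with 5.36%, 5.95% and 5.55% of all tested genes.

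**Figure D2:**
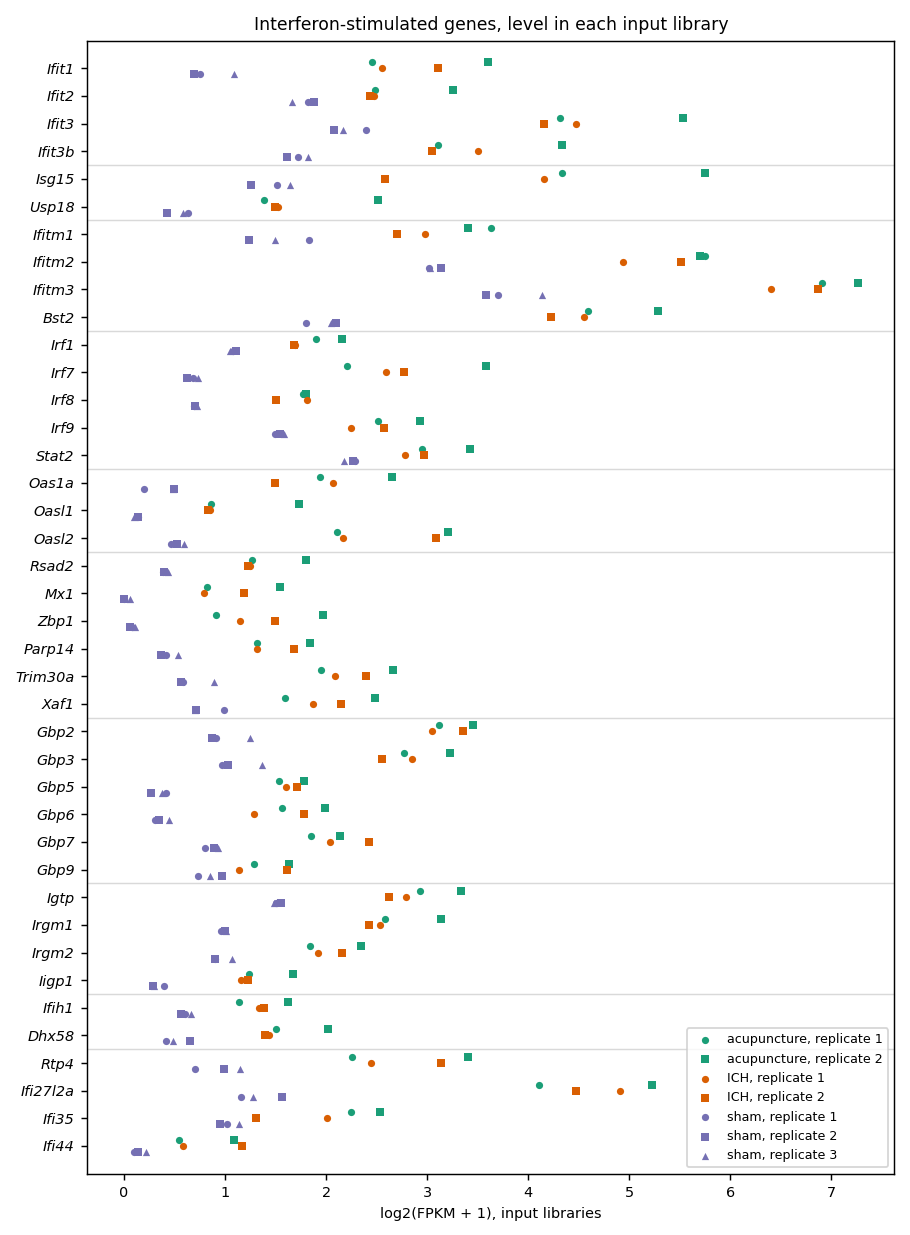
Level of each of the 40 genes on the log2(FPKM + 1) axis, with 1 point per input library, grouped by role from top to bottom. Sham points (purple) lie left of all ICH (orange) and acupuncture (green) points in each of the 40 genes, and the green square of acupuncture replicate 2 is the rightmost point in 35 of them.

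Acupuncture against ICH asked whether treatment changed the response. None of the 36 tested genes was called, with 0.0366% of all tested genes called higher. At an unadjusted p under 0.05 there were 6 of 36 genes (Isg15, Ifitm1, Ifitm2, Irf1, Igtp and Ifi35), all higher after acupuncture, with 20.2% of all tested genes at that level in either direction. The acupuncture libraries lay wholly above the ICH libraries for 12 of the 36 tested genes and 14 of all 40, and 28.8% of all tested genes did so. The median log2 fold change was 0.30, beside 0.05 over all tested genes. It was 0.03 without acupuncture replicate 2 and 0.56 without acupuncture replicate 1, so its size turned on which acupuncture library was kept.

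Acupuncture replicate 2 was the highest of the 7 libraries for 35 of the 40 genes (87.5%), while it was the highest for 17.6% of all tested genes. It lay above both ICH libraries for 37 of the 40, beside 5467 of the 13666 tested genes. Acupuncture replicate 1 lay above both ICH libraries for 14 of the 40 genes, between them for 11 and below both for 15. Those shares were 39.7%, 28.7% and 31.7% over all tested genes, so the places of replicate 1 were near those of genes at large. The difference between the acupuncture libraries on the log2(FPKM + 1) scale, replicate 2 minus replicate 1, had a median of 0.53 over the 40 genes and 0 over all tested genes. Of the 40, 38 were higher in replicate 2, beside 50.1% of all tested genes. In the ICH libraries the same difference had a median of 0.09 over the 40 genes. There 22 of 40 genes were higher in replicate 2, beside 47.1% of all tested genes.

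The gap between the acupuncture libraries was unequal among the gene families. Its median was 1.18 for the Ifit genes, 1.27 for Isg15 and Usp18 and 0.87 for the OAS family. For the guanylate-binding proteins it was 0.34, for the immunity-related GTPases 0.47 and for the membrane restriction factors 0.15. It was 0.41 for the transcription factors, 0.50 for the cytosolic RNA sensors, 0.72 for the other antiviral effectors and 0.83 for the other induced genes. Irf7, the factor that amplifies the type I response, had a level 3.02 times as high in replicate 2 as in replicate 1. That ratio was 1.45 for Stat2, 1.40 for Irf9 and 1.04 for Irf8. For Irf1, a factor known for its induction by interferon gamma, it was 1.27 (3.47 against 2.74 FPKM). Microglia markers were lower in replicate 2 than in replicate 1 (506 against 558 FPKM), as were reactive astrocyte and neutrophil markers. The gap goes along with the low choroid plexus sum of replicate 2, in which none of the 5 markers was at 0, and the part of that difference in the gap was not tested.

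**Figure D3:**
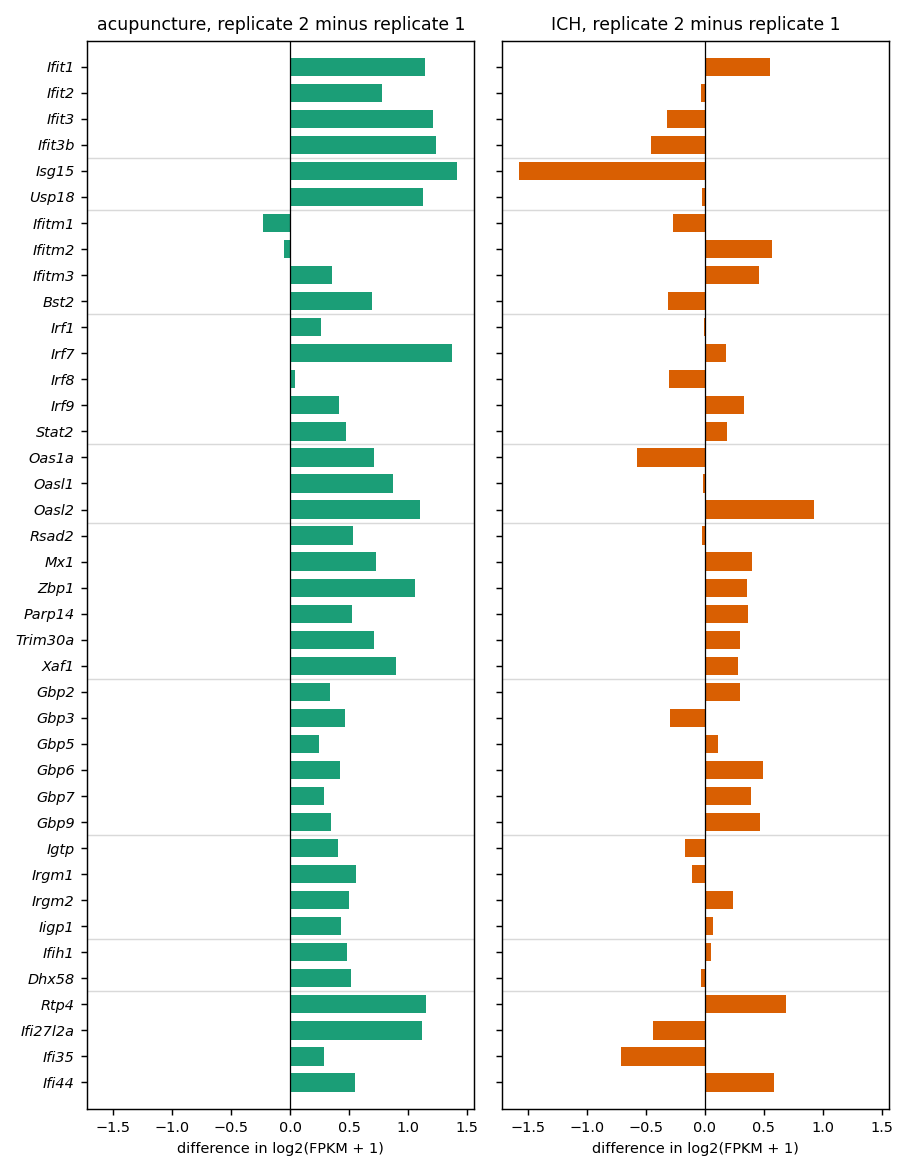
Difference between replicate 2 and replicate 1 in log2(FPKM + 1) for the 40 genes, in the acupuncture libraries (left) and the ICH libraries (right), with 1 bar per gene. In the acupuncture libraries 38 bars point to the right, with Isg15, Irf7, Ifit3b and Ifit3 the longest, while in the ICH libraries 22 point right and 18 left.

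The Ifit proteins bind foreign RNA ends and block their translation. Ifit3 (ENSMUSG00000074896, chr19:34583531-34588731) had 18.9 and 45.1 FPKM in the acupuncture libraries, 21.25 and 16.8 FPKM in the ICH libraries and 4.275, 3.22 and 3.49 FPKM in the sham libraries. The ICH libraries lay around the lower acupuncture library, and both groups lay well above sham. Its log2 fold change was 2.71 (SE 0.33, adjusted p = 0.00275, limma) in acupuncture against sham, 2.10 (SE 0.33, adjusted p = 0.0133, limma) in ICH against sham and 0.61 (SE 0.36, adjusted p = 0.339, limma) in acupuncture against ICH. The 95% interval of that last difference ran from 0.843-fold to 2.75-fold on the FPKM + 1 scale.

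Ifit1 and Ifit3b were called in both comparisons with sham, and Ifit2 in acupuncture against sham. Ifit2 had 4.60 and 8.58 FPKM after acupuncture, 4.54 and 4.40 FPKM in ICH and 2.17 to 2.68 FPKM in sham. In ICH it was 1.59-fold higher than in sham on the FPKM + 1 scale and missed the threshold (limma adjusted p = 0.144). Ifit3b, at 7.28 to 19.2 FPKM in the haemorrhage libraries, is a near copy of Ifit3, so reads may have been split between them by the authors' counting.

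Isg15 is a ubiquitin-like protein that is attached to other proteins, and Usp18 is the protease that removes it and restrains the type I receptor. Isg15 (ENSMUSG00000035692, chr4:156199455-156200796) had 19.2 and 52.9 FPKM in the acupuncture libraries, 16.8 and 4.99 FPKM in the ICH libraries and 1.85, 1.40 and 2.12 FPKM in the sham libraries. Acupuncture lay above ICH and ICH above sham without overlap, but the libraries within each haemorrhage group were far apart. On the log2(FPKM + 1) scale, replicate 2 minus replicate 1 was 1.41 in acupuncture and -1.57 in ICH. The acupuncture mean lay 1.68 above the ICH mean on that scale. The log2 fold change of Isg15 was 3.57 (SE 0.53, adjusted p = 0.00652, limma) in acupuncture against sham, the largest of the 36, and 1.90 (SE 0.53, adjusted p = 0.104, limma) in ICH against sham.

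Isg15 was 3.20-fold higher in acupuncture than in ICH on the FPKM + 1 scale, with an interval from 1.22 to 8.36, and was not called (limma adjusted p = 0.217). Without ICH replicate 1 it passed the threshold (limma adjusted p = 0.0167), as did Ifitm1 and Ifi35, but 23.0% of all tested genes were then called higher. Usp18 had 1.61 and 4.70 FPKM after acupuncture, 1.87 and 1.81 FPKM in ICH and 0.340 to 0.549 FPKM in sham. It was called in acupuncture against sham and not in ICH against sham (limma adjusted p = 0.135).

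The membrane restriction factors stop viruses at the cell surface and in endosomes, and were the most abundant of the set. Ifitm3, which blocks fusion of virus with endosomes (ENSMUSG00000025492, chr7:141009586-141010770), had 119 and 152 FPKM in the acupuncture libraries, 83.5 and 116 FPKM in the ICH libraries and 11.98, 11 and 16.6 FPKM in the sham libraries. The groups did not overlap, sham lay far below, and the ICH libraries were about as far apart as the acupuncture and ICH means were. For Ifitm3 the log2 fold change was 3.28 (SE 0.22, adjusted p = 0.000229, limma) in acupuncture against sham, 2.83 (SE 0.22, adjusted p = 0.000816, limma) in ICH against sham and 0.45 (SE 0.24, adjusted p = 0.303, limma) in acupuncture against ICH.

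All 4 genes of this group (Ifitm1, Ifitm2, Ifitm3 and Bst2) were called in both comparisons with sham, where 8.47% (acupuncture) and 4.95% (ICH) of all tested genes were called higher. In all 4 the acupuncture libraries lay wholly above the ICH libraries, as they did in 28.8% of all tested genes. Bst2, the tether that holds budding virus to the cell, had 23.1 and 37.9 FPKM after acupuncture, 22.4 and 17.8 FPKM in ICH and 2.48, 3.29 and 3.14 FPKM in sham. Ifitm2 had 53.0 and 51.0 FPKM after acupuncture, 29.7 and 44.7 FPKM in ICH and 7.09 to 7.81 FPKM in sham. Ifitm1 had 11.4 and 9.56 FPKM after acupuncture, 6.87 and 5.52 FPKM in ICH and 1.35 to 2.57 FPKM in sham. Ifitm1 and Ifitm2 were the only members of the 40 with a lower level in acupuncture replicate 2 than in replicate 1.

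Among the transcription factors, Irf7 had the largest change against sham in both haemorrhage groups. Irf7 (ENSMUSG00000025498, chr7:141262706-141266481) had 3.63 and 10.98 FPKM in the acupuncture libraries, 5.04 and 5.83 FPKM in the ICH libraries and 0.603, 0.543 and 0.656 FPKM in the sham libraries. The ICH libraries fell between the acupuncture libraries. The fitted log2 fold change of Irf7 was 2.22 (SE 0.35, adjusted p = 0.00824, limma) in acupuncture against sham and 2.00 (SE 0.35, adjusted p = 0.0206, limma) in ICH against sham, and its fold in acupuncture against ICH had an interval from 0.616 to 2.18.

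Irf1, Irf8 and Irf9 were called in both comparisons with sham. Irf8, a factor of myeloid cells and microglia, had 2.41 and 2.50 FPKM after acupuncture, 2.50 and 1.85 FPKM in ICH and 0.611 to 0.649 FPKM in sham. Stat2, the partner of Irf9 (ENSMUSG00000040033, chr10:128270559-128292849), had 6.70 and 9.70 FPKM after acupuncture, 5.88 and 6.84 FPKM in ICH and 3.86, 3.79 and 3.53 FPKM in sham. It was the factor with the highest sham level, and it was called in acupuncture against sham (limma adjusted p = 0.00873) and not in ICH against sham (limma adjusted p = 0.0626).

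The OAS family binds double-stranded RNA, and its active members make the 2′-5′ oligoadenylates that switch on RNase L. Oasl2 (ENSMUSG00000029561, chr5:114896936-114912234) had 3.30 and 8.20 FPKM in the acupuncture libraries, 3.48 and 7.51 FPKM in the ICH libraries and 0.380, 0.443 and 0.512 FPKM in the sham libraries. In both haemorrhage groups replicate 2 lay far above replicate 1, and the groups overlapped fully. The log2 fold change of Oasl2 was 2.12 (SE 0.36, adjusted p = 0.0116, limma) in acupuncture against sham, 2.10 (SE 0.36, adjusted p = 0.0202, limma) in ICH against sham and 0.03 (SE 0.40, adjusted p = 0.972, limma) in acupuncture against ICH. Oas1a, called in both comparisons with sham, had 2.83 and 5.27 FPKM after acupuncture, 3.19 and 1.81 FPKM in ICH and 0.144 to 0.410 FPKM in sham. Oasl1 was under the filter, with 0.812 and 2.32 FPKM after acupuncture, 0.799 and 0.778 FPKM in ICH and 0.0738 to 0.104 FPKM in sham.

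Of the other antiviral effectors, Rsad2, Parp14, Trim30a and Xaf1 were called in both comparisons with sham and Zbp1 in acupuncture against sham. Trim30a, a tripartite-motif protein that dampens signalling from Toll-like receptors (ENSMUSG00000030921, chr7:104409025-104465193), had 2.86 and 5.31 FPKM after acupuncture, 3.25 and 4.24 FPKM in ICH and 0.493, 0.477 and 0.854 FPKM in sham. Both ICH libraries fell between the acupuncture libraries. The log2 fold change of Trim30a was 1.625 (SE 0.23, adjusted p = 0.00518, limma) in acupuncture against sham and 1.56 (SE 0.23, adjusted p = 0.00994, limma) in ICH against sham.

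Zbp1, a sensor of Z-form nucleic acid that can start necroptosis, had 0.885 and 2.93 FPKM after acupuncture, 1.21 and 1.82 FPKM in ICH and 0.0443 to 0.0744 FPKM in sham. It missed the threshold in ICH against sham (limma adjusted p = 0.0636). Mx1, a dynamin-like antiviral GTPase, had 0.761 and 1.91 FPKM after acupuncture and 0.735 and 1.28 FPKM in ICH, and was listed at 0 in sham replicates 1 and 2 and at 0.0381 FPKM in sham replicate 3. It stayed under the filter. Rsad2 (viperin, which makes a chain-terminating nucleotide), Parp14 (an ADP-ribosyltransferase) and Xaf1 (a pro-apoptotic factor) reached 1.33 to 4.59 FPKM in the haemorrhage libraries.

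The guanylate-binding proteins and the immunity-related GTPases attack the vacuoles of intracellular microbes and are known for strong induction by interferon gamma. Gbp2 (ENSMUSG00000028270, chr3:142620602-142638008) had 7.68 and 9.95 FPKM in the acupuncture libraries, 7.29 and 9.21 FPKM in the ICH libraries and 0.878, 0.825 and 1.37 FPKM in the sham libraries. The haemorrhage groups interleaved and sham lay far below. For Gbp2 the log2 fold change was 2.28 (SE 0.17, adjusted p = 0.000377, limma) in acupuncture against sham, 2.19 (SE 0.17, adjusted p = 0.000816, limma) in ICH against sham and 0.08 (SE 0.19, adjusted p = 0.797, limma) in acupuncture against ICH.

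Of the 6 guanylate-binding protein genes, Gbp2, Gbp3, Gbp5, Gbp6 and Gbp7 were called in both comparisons with sham and Gbp9 in neither. In all 6 the acupuncture and ICH libraries overlapped. Gbp7 and Ifi27l2a were the 2 tested genes of the set with a log2 fold change below 0 in acupuncture against ICH. Gbp7 had 2.61 and 3.40 FPKM after acupuncture, 3.10 and 4.36 FPKM in ICH and 0.737 to 0.903 FPKM in sham. Gbp9 had 1.44 and 2.11 FPKM after acupuncture, 1.20 and 2.05 FPKM in ICH and 0.664 to 0.952 FPKM in sham, and missed the threshold (limma adjusted p = 0.0823 in acupuncture against sham and 0.169 in ICH against sham). The annotated span of Gbp9 overlaps Gbp4 and Gbp8 on the same strand, and that of Gbp6 overlaps Gm43302, so their reads may have been shared. Ifitm2, Irf9, Parp14, Gbp7 and Rtp4 also overlap an annotated gene on the same strand, that of Ifitm2 by 1101 bases. Usp18, Irf1, Irf7, Oasl1, Dhx58 and Rtp4 overlap annotated genes on the opposite strand. Masp1, opposite Rtp4, had 1.01 to 2.00 FPKM. Whether the authors' counting used strand is not stated in the sources used here.

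Irgm1, which directs the other GTPases of its family (ENSMUSG00000046879, chr11:48861968-48871683), had 4.99 and 7.81 FPKM in the acupuncture libraries, 4.78 and 4.37 FPKM in the ICH libraries and 0.947, 0.997 and 1.02 FPKM in the sham libraries. Acupuncture lay just above ICH without overlap. Irgm1 had a log2 fold change of 1.87 (SE 0.16, adjusted p = 0.000688, limma) in acupuncture against sham and 1.49 (SE 0.16, adjusted p = 0.0029, limma) in ICH against sham, and it was not called in acupuncture against ICH (limma adjusted p = 0.268).

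Igtp, an effector GTPase also named Irgm3 (ENSMUSG00000078853, chr11:58199556-58207591), had 6.61 and 9.06 FPKM after acupuncture, 5.93 and 5.17 FPKM in ICH and 1.84, 1.93 and 1.80 FPKM in sham. It was 1.34-fold higher in acupuncture than in ICH on the FPKM + 1 scale, with an interval from 1.05 to 1.71 (limma adjusted p = 0.218). On the gene models of the table, the annotated spans of Igtp and Irgm2 overlap by 7974 bases on the same strand, so both levels are uncertain. Irgm2 was called in both comparisons with sham. Iigp1 fell just under the filter with a mean of 0.982 FPKM, and had 1.36 and 2.18 FPKM after acupuncture, 1.23 and 1.35 FPKM in ICH and 0.216 to 0.316 FPKM in sham.

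The cytosolic RNA sensors Ifih1 (MDA5) and Dhx58 (LGP2) were called in both comparisons with sham. Dhx58 (ENSMUSG00000017830, chr11:100694884-100704271) had 1.84 and 3.06 FPKM after acupuncture, 1.70 and 1.64 FPKM in ICH and 0.331, 0.571 and 0.397 FPKM in sham. For Dhx58 the log2 fold change was 1.25 (SE 0.17, adjusted p = 0.00472, limma) in acupuncture against sham and 0.90 (SE 0.17, adjusted p = 0.0289, limma) in ICH against sham. The acupuncture libraries lay above the ICH libraries without overlap, with a fold from 0.934 to 1.74.

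Ifi27l2a, an interferon-induced gene of the Ifi27 family, had the largest change of the 36 in ICH against sham. Ifi27l2a (ENSMUSG00000079017, chr12:103442167-103443680) had 16.3 and 36.5 FPKM in the acupuncture libraries, 29.1 and 21.2 FPKM in the ICH libraries and 1.225, 1.96 and 1.42 FPKM in the sham libraries. Both ICH libraries fell between the acupuncture libraries. The log2 fold change of Ifi27l2a was 3.34 (SE 0.32, adjusted p = 0.00107, limma) in acupuncture against sham, 3.36 (SE 0.32, adjusted p = 0.00168, limma) in ICH against sham and -0.02 (SE 0.35, adjusted p = 0.974, limma) in acupuncture against ICH.

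Rtp4, an interferon-induced chaperone of receptors, was called in both comparisons with sham and had 3.78 and 9.59 FPKM after acupuncture, 4.46 and 7.78 FPKM in ICH and 0.626 to 1.21 FPKM in sham. Ifi35 had 3.75 and 4.80 FPKM after acupuncture, 3.03 and 1.47 FPKM in ICH and 0.935 to 1.20 FPKM in sham. It was called in acupuncture against sham (limma adjusted p = 0.00801) and not in ICH against sham (limma adjusted p = 0.165). Ifi44, under the filter, had 0.453 and 1.13 FPKM after acupuncture, 0.496 and 1.25 FPKM in ICH and 0.0677 to 0.163 FPKM in sham.

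**Figure D4:**
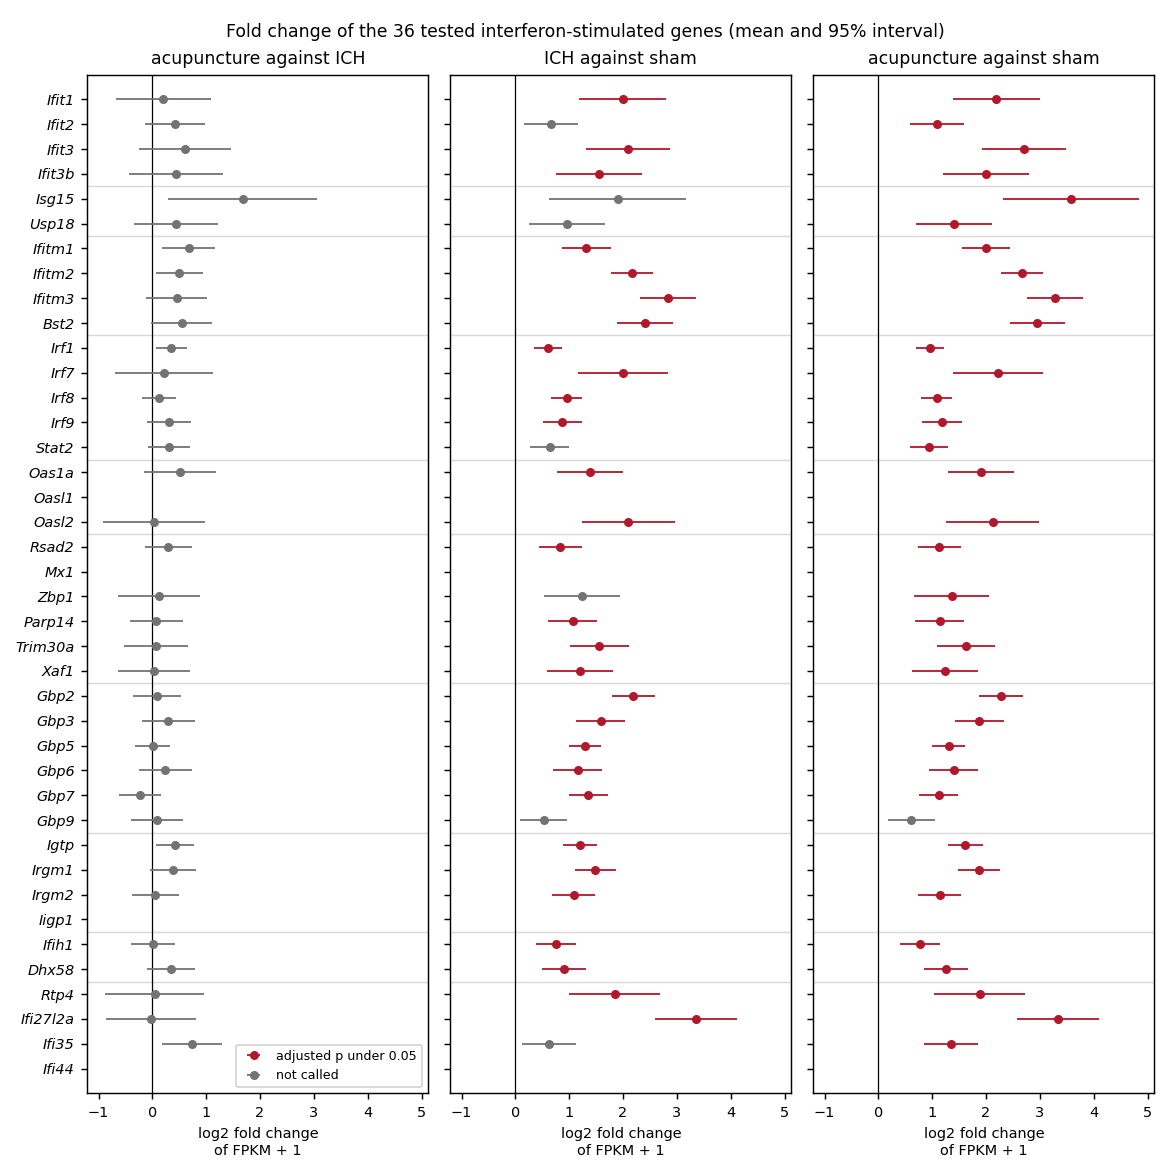
Log2 fold change of FPKM + 1 with its 95% interval for the 36 tested genes in acupuncture against ICH, ICH against sham and acupuncture against sham, coloured red where the limma adjusted p was under 0.05. Red points number 0, 29 and 35 in the panels from left to right, and empty rows are the 4 genes under the filter.

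Genes of the pathway outside the 40 were followed from a list of ligands, receptors, signalling genes, sensors and further induced genes. Of 12 interferon genes, Ifne was in the table, at 0 in 6 libraries and at 0.234 FPKM in sham replicate 1, so no ligand was measured at a level that could be compared. Of 5 tested receptor genes, Ifnar2, Ifngr1 and Il10rb were called higher in both comparisons with sham. Ifnar2, a chain of the type I receptor, had 7.97 and 7.69 FPKM after acupuncture, 6.74 and 8.69 FPKM in ICH and 3.71, 3.41 and 3.83 FPKM in sham. Ifngr1, the binding chain of the gamma receptor, had 8.29 and 7.70 FPKM after acupuncture, 7.09 and 7.32 FPKM in ICH and 3.85 to 4.25 FPKM in sham. Il10rb, a shared chain of the lambda interferon and interleukin-10 receptors, had 5.33 and 5.02 FPKM after acupuncture, 4.06 and 3.45 FPKM in ICH and 1.37 to 1.70 FPKM in sham.

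Of the kinases, Tyk2 was called higher in acupuncture against sham (limma adjusted p = 0.0383), and Jak1 and Jak2 were called in neither comparison. Of 10 tested sensors, adaptors and upstream factors, Ddx58, Sting1, Tlr7, Myd88, Ticam1 and Irf5 were called higher in both comparisons with sham and none was lower. Tlr7, the endosomal sensor of single-stranded RNA, had 2.57 and 2.53 FPKM after acupuncture, 2.65 and 4.16 FPKM in ICH and 0.357 to 0.535 FPKM in sham. Myd88, the adaptor of most Toll-like receptors, had 5.35 and 5.21 FPKM after acupuncture, 3.69 and 2.59 FPKM in ICH and 1.41 to 1.64 FPKM in sham. Sting1, which relays the sensing of cytosolic DNA, had 3.32 and 3.05 FPKM after acupuncture, 3.08 and 4.65 FPKM in ICH and 0.738 to 1.04 FPKM in sham. Mavs, Tbk1, Irf3 and Tlr3 were called in neither comparison.

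Of 8 tested negative regulators, Socs3 and Ptpn6 were called higher in both comparisons with sham. Socs3, a brake on Jak kinases, had 11.75 and 8.36 FPKM after acupuncture, 5.71 and 3.55 FPKM in ICH and 1.12, 0.957 and 0.807 FPKM in sham. Adar, the RNA editor that masks self RNA, had 16.2 and 19.5 FPKM after acupuncture, 19.95 and 14.4 FPKM in ICH and 18.95 to 19.25 FPKM in sham, and was called in neither comparison. Of 46 tested further induced genes, 39 were called higher in acupuncture against sham (8.47% of all tested genes), 30 in ICH against sham (4.95%) and none in acupuncture against ICH (0.0366%). Of the 46, 21 had a sham mean under 1 FPKM and passed the filter through the haemorrhage groups, so these counts are descriptions. Cxcl10, a chemokine that draws T cells, had 5.09 and 5.59 FPKM after acupuncture, 4.86 and 5.98 FPKM in ICH and 0.111 to 0.175 FPKM in sham. Ifi30, a lysosomal thiol reductase of antigen presentation, had 48.55 and 41.9 FPKM after acupuncture, 32.8 and 37.5 FPKM in ICH and 1.20 to 1.83 FPKM in sham. Ly6a, a surface protein of endothelial and blood cells, had 39.05 and 43.1 FPKM after acupuncture, 24.9 and 24.2 FPKM in ICH and 8.07 to 8.85 FPKM in sham. Psmb8, a subunit of the immunoproteasome, had 4.93 and 5.14 FPKM after acupuncture, 3.12 and 2.25 FPKM in ICH and 0.400 to 0.482 FPKM in sham. T and NK cell markers (11 genes) summed to 4.19 and 3.37 FPKM after acupuncture, 3.62 and 7.12 FPKM in ICH and 3.99 to 4.98 FPKM in sham. Of them, 5 to 7 were at 0 in each sham library. Cd4 carried most of the sham sums, with 4.12, 3.95 and 3.51 FPKM, against 0.913 to 2.59 FPKM after haemorrhage. Cd3d, Cd8a, Nkg7, Gzma and Gzmb went the other way, all under 1 FPKM. The rest overlapped sham in ICH or after acupuncture, so the sum does not show the direction of these cells.

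The m6A mark is placed on mRNA mainly near stop codons and in 3′ UTRs and is known to influence the decay of transcripts, interferon transcripts included. The authors deposited 1 peak list per group, with the log2 of IP over input for the whole group, so no value per library and no test across libraries could be had. An m6A peak was listed in the acupuncture group for 39 of the 40 genes, in the ICH group for 38 and in the sham group for 32. Of all tested genes, 94.0% had a peak in acupuncture, 94.3% in ICH and 93.6% in sham. The genes without a peak were Ifi27l2a in acupuncture, Ifitm2 and Gbp2 in ICH, and Usp18, Oas1a, Oasl1, Mx1, Zbp1, Trim30a, Igtp and Ifi44 in sham.

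All sham gaps but Igtp were in genes with a sham mean under 1 FPKM. The Igtp peaks of the acupuncture and ICH lists ran past its end into the overlapping Irgm2. There the sham list gave Irgm2 a peak (chr11:58219583-58221307) at 2.57. The authors' deposited differential table gave an Igtp peak 2.06 in acupuncture and 2.27 in sham (authors' adjusted p = 0.112). That peak (chr11:58201694-58221482) also ran past the end of Igtp and over the sham peak of Irgm2. Whether the mark was absent from Igtp in sham, or was listed under Irgm2, thus cannot be told. Of all genes with a sham mean above 0 and under 1 FPKM, 29.3% had a listed peak in sham, against 17 of the 24 interferon-stimulated genes in that range. Levels within the range were not matched, so the shares do not compare genes of like level. The genes without a peak in the haemorrhage groups were well expressed, with 16.3 and 36.5 FPKM for Ifi27l2a after acupuncture and 29.7 and 44.7 FPKM for Ifitm2 in ICH. The authors' deposited differential table of acupuncture against ICH gave an Ifi27l2a peak 0.705 in acupuncture and a Gbp2 peak 0.696 in ICH. The lowest listed peaks of the 40 genes had 0.593 in acupuncture and 0.556 in ICH. A gap in a list thus does not show that the mark was absent. The lists held 84, 101 and 67 peaks of the 40 genes in acupuncture, ICH and sham, of which 66.7%, 56.4% and 62.7% were annotated to 3′ UTRs. Over all peaks those shares were 54.7%, 52.3% and 54.5%.

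The highest peak of each gene had a median authors' log2 of IP over input of 1.62 in acupuncture, 1.92 in ICH and 1.70 in sham over the genes with a peak. The same median over all genes with a peak was 1.69, 1.99 and 1.65. Irgm1 was the highest of the 40 genes in each list, and Ifit2 and Gbp5 were among the highest 5 in each. Ifit3 and Gbp7 completed the 5 in acupuncture, Gbp6 and Rtp4 in ICH, and Gbp6 and Gbp7 in sham. Irgm1 had 3.39 in acupuncture, 3.62 in ICH and 3.71 in sham, in a peak of 6356 to 6381 bases that ran over most of the gene and was annotated to its 3′ UTR. Ifit2 had 3.24 in acupuncture, 3.47 in ICH and 3.32 in sham. Gbp5 had 3.18 in acupuncture, 3.22 in ICH and 3.71 in sham. Ifitm3, with the most abundant transcript of the 40, had 1.04, 1.20 and 0.975 in acupuncture, ICH and sham.

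**Figure D5:**
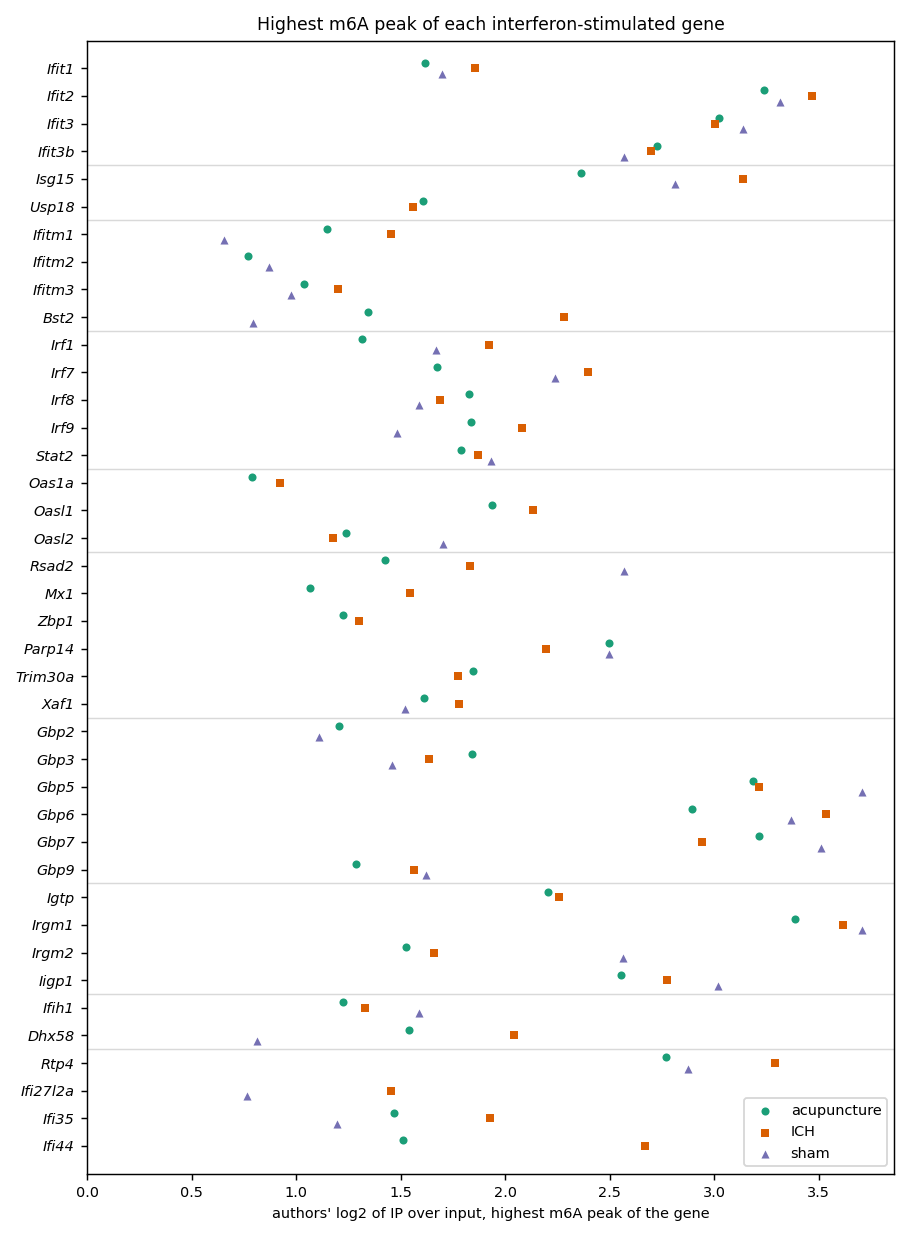
Authors' log2 of IP over input of the highest m6A peak of each gene in the acupuncture (circle), ICH (square) and sham (triangle) lists, 1 point per group and no point where no peak was listed. Irgm1 reaches 3.39, 3.62 and 3.71, and Ifitm3 stays at 1.04, 1.20 and 0.975.

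The authors' differential tables give each listed peak its log2 of IP over input in both groups and the authors' p, and hold only peaks at a p under 0.05. In acupuncture against ICH, the authors' deposited table listed 42 peaks of 28 of the 40 genes, and 73.4% of all tested genes had at least 1 listed peak. Of the 42 peaks, 10 were higher and 32 lower in acupuncture, beside 18.6% of all peaks of the authors' deposited table that were higher, so the share of 23.8% lay near that of the table. In ICH against sham, the authors' deposited table listed 32 peaks of 24 genes (77.8% of all tested genes), of which 22 were higher in ICH, beside 78.7% of all its peaks. In acupuncture against sham, the authors' deposited table listed 23 peaks of 18 genes (64.2% of all tested genes), of which 9 were higher after acupuncture, beside 58.3% of all its peaks.

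Bst2 had the smallest p of the 40 genes in the tables of acupuncture against ICH and of ICH against sham. In the authors' deposited table its 3′ UTR peak (chr8:71534255-71534720) had a log2 of IP over input of 1.35 in acupuncture and 2.58 in ICH, a difference of -1.23 (authors' adjusted p = 2.13e-19). In ICH against sham the authors' deposited table gave a longer peak from the same start (chr8:71534255-71535813) 2.13 in ICH and 0.481 in sham, a difference of 1.65 (authors' adjusted p = 1.33e-11). Bst2 had 1.30 in acupuncture and 0.777 in sham in the authors' deposited table of that pair (authors' adjusted p = 0.106). The Bst2 transcript itself was high in both haemorrhage groups and low in sham.

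Isg15, Ifi27l2a and Irf1 were also lower in acupuncture than in ICH. The authors' deposited table gave the Isg15 peak, which ran over nearly the whole gene (chr4:156199455-156200793), 2.34 in acupuncture and 3.09 in ICH (authors' adjusted p = 6.8e-15). The authors' deposited table gave the Ifi27l2a peak 0.705 in acupuncture and 1.40 in ICH (authors' adjusted p = 5.86e-08), and the Irf1 3′ UTR peak 1.16 in acupuncture and 1.99 in ICH (authors' adjusted p = 0.000111). The direction was the other for a peak of Oasl2, with 1.64 in acupuncture and 0.944 in ICH, and for one of Gbp7, with 3.20 in acupuncture and 2.81 in ICH, in the authors' deposited table (authors' adjusted p = 1.93e-07 and 8.29e-05).

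In ICH against sham, the authors' deposited table gave the Irf1 3′ UTR peak 1.96 in ICH and 0.867 in sham and the Ifitm1 3′ UTR peak 1.41 in ICH and 0.363 in sham (authors' adjusted p = 1.78e-05 and 2.16e-05). A short peak at the 5′ end of Gbp3 had 2.13 in ICH and -2.43 in sham in the authors' deposited table (authors' adjusted p = 0.000312), where the transcript was at 0.961, 1.04 and 1.57 FPKM in the sham libraries. Peaks of Gbp7 and Stat2 were lower in ICH, with 2.87 in ICH and 3.55 in sham for Gbp7 and 1.70 in ICH and 2.15 in sham for Stat2 in the authors' deposited table (authors' adjusted p = 5e-07 and 0.000209).

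Irgm1 had in acupuncture against sham the smallest p, with 3.35 in acupuncture and 3.69 in sham in the authors' deposited table (authors' adjusted p = 0.000642). The authors' deposited table also listed higher peaks after acupuncture in Gbp2, Usp18 and Dhx58 and lower ones in Zbp1 and Isg15. Gbp2 had 0.148 in acupuncture and -4.20 in sham, Usp18 1.31 and -0.505, and Dhx58 1.56 and 0.393. Their sham levels were 0.825 to 1.37 FPKM for Gbp2, 0.340 to 0.549 FPKM for Usp18 and 0.331 to 0.571 FPKM for Dhx58. The sham ratios of these genes thus rest on little input RNA. Isg15 had 2.32 in acupuncture and 2.79 in sham (authors' adjusted p = 0.0217 in the authors' deposited table). Zbp1 had 0.988 in acupuncture and 4.91 in sham in the authors' deposited table (authors' adjusted p = 0.0186), at a sham level of 0.0443 to 0.0744 FPKM, so its sham ratio rests on very little input RNA.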

How the data were processed

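The 40 genes, their roles, the further lists and the tests were chosen with earlier results of these data known. Levels are the FPKM values of the input libraries that the authors deposited. Tools listed in the submitters' processing notes, without versions or roles, are edgeR, StringTie, HOMER, HISAT2 and fastp, and libraries were stranded per the labels' protocols. Those notes name a human build, but the files hold mouse identifiers, and 96.27% of 25299 genes matched by symbol, and 39 of the 40, lay within 1000 bases of their GRCm38 position. Columns headed control and EA were matched to sham and acupuncture by elimination, and 2 FPKM columns that match no sample were not used. Peak lists hold the log2 of IP over input with p-values, and differential tables the log2 in 2 groups with p-values, all computed by the authors per group. Whether the unused FPKM libraries entered those lists is not stated in the sources used here. Differential peaks were counted at an authors' p under 0.05. The start positions of peaks were counted from 0 and 1 was added.

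Genes averaging 1 FPKM or more were fitted in limma 3.58.1 (R 4.3.3) on log2(FPKM + 1), with 1 mean for each of the 3 groups over 7 input libraries, a moderated variance with a trend, and two-sided contrasts with Benjamini-Hochberg adjustment over 13666 genes. The code was tested on simulated data. Intervals are 95% limits from the moderated fit. Depth, and the precision it gives, is unknown. The rule for named genes covered all 40, with library values, per comparison and role, for the called gene of largest change, or the most abundant where none was called, and for genes that were not called or lay under the filter. It named up to 4 pathway genes per role by smallest p in acupuncture against sham, the 5 highest peaks per group and the 6 smallest p per differential table. Library values of other members, and Adar, Mavs, Tbk1, Irf3 and Tlr3, were chosen after their values were seen. Tables and figures used Python 3.11.15, numpy 2.4.6, pandas 2.3.3 and matplotlib 3.10.9. The alternatives concerned the pseudocount, the filter, scaling, the variance trend, a replicate block, the groups fitted, a fold minimum and the peak criteria, besides leaving out each library. Protein sequences and genome sequence under the peaks were not used here. The result of 1 pathway gene is not reported here.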

Additional observations from a re-analysis of the deposited data

How the results depend on the processing

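The log2 fold changes against sham of the 36 tested genes were above 0 under each alternative tried. In ICH against sham, 13 genes were called without a filter and 17 with the replicate number as a block, against 29 in the fit as reported, and 13 to 33 with 1 library left out. Between acupuncture and sham, 30 were called without a filter, 29 with the replicate block and 27 to 35 with 1 library left out. In acupuncture against ICH, 0 were called under each alternative except without ICH replicate 1 (3 genes, 0 to 3 over the left-out libraries). A lone library left in a group is assumed to vary like the other groups. Deviations of same-numbered libraries correlated at -0.015 to 0.094, so the numbers were not taken as pairs. The median log2 fold change in ICH against sham was 2.10 with a pseudocount of 0.1, 1.91 with libraries rescaled to the same total and 1.23 to 1.36 with 1 library left out. In acupuncture against sham it was 2.46, 2.27 and 1.31 to 1.89 under the same changes, and in acupuncture against ICH 0.03 to 0.56 with 1 library left out. Rescaling was to a total above that of every library, so the pseudocount of 1 weighed less and 18689 genes, with all 40, passed the filter. Its medians thus do not show the effect of equal totals alone. Over all tested genes, acupuncture against sham gave 1158 higher and 440 lower calls, and 923 and 721 after quantile normalization. After rescaling it gave 1290 and 813 over the 18689 genes, and no gene of the 40 was lower in any of these. With at least 50% of each peak shared, 32 acupuncture and 27 ICH peaks of the 40 genes were shared with sham, in place of 51 and 53 at 1 shared base. Restricting to peaks of at most 1000 bases left 15 genes with a differential peak between ICH and sham and 8 between acupuncture and sham, where an authors' adjusted p under 0.05 left 11. Unknown depth limits what can be said of genes near 0 FPKM.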
